A study of Mus musculus with 12 samples.

Results

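Gata3 and 8 genes that act with it in type 2 immunity (Il4, Il5, Il13, Il4ra, Il1rl1, Stat6, Csf2 and Il3) were followed across 12 RNA-seq libraries of mouse CD4+ T cells. The genes were chosen by symbol, and all 9 were found among the 35492 symbols of the deposited tables. Libraries were stranded, ribosomal RNA had been removed, and RNA came from 300000 cells read as pairs of 75 bases. Values are TPM (transcript abundances scaled to a fixed sum), which are relative to transcript length and to all other transcripts of a library.

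The 12 libraries form 4 groups of 3, all from C57BL/6J mice aged 7 weeks. Tfh_TILS cells were CD4+ CXCR5+ PD1+ cells sorted from MC38 tumours, a colon carcinoma line grown in mice. Tfh_Vitro cells were naive wild-type T cells of spleen and lymph nodes, cultured on plates coated with CD3 and CD28 with IL-6 and IL-21 (50 ng/ml each) and with blocking antibodies to 3 cytokines, IL-4, IFNγ and TGFβ (10 µg/ml each). Tfh_OTII cells had the same culture but came from OT-II mice, which are transgenic for a T cell receptor that recognises ovalbumin. Th1_Vitro cells were naive wild-type T cells given IL-12 (10 ng/ml) and the antibody against IL-4 (10 µg/ml). IL-4 was therefore blocked in all 3 culture groups. The sort of Tfh_TILS cells used no marker that would leave out regulatory T cells. The titles give 24 h for Tfh_Vitro and Th1_Vitro and 48 h for Tfh_OTII, while the protocol gives 48 h for every culture, so the OT-II origin and the titled time cannot be told apart. The labels do not say whether the 3 libraries of a group came from separate mice or cultures, so every p-value measures only the spread between these libraries.

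GATA3 is the transcription factor that defines type 2 helper T cells. It acts on a cluster of cytokine genes in which Il4, Il13 and Il5 lie close together, with Csf2 and Il3 further along the same chromosome. IL-4 signals through IL-4Rα (encoded by Il4ra) and STAT6, and that signal raises Gata3 in turn. T follicular helper (Tfh) cells also make IL-4, which acts on B cells in germinal centres, while the T-bet protein of type 1 helper (Th1) cells (encoded by Tbx21) opposes GATA3.

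Within the annotation used (GENCODE release 21 on GRCm38), the gene bodies of Il4 (chr11:53602982-53618669, minus strand) and Il13 (chr11:53631324-53634702, minus strand) start 16.0 kb apart. Il5 (chr11:53720794-53725106, plus strand) starts 102.1 kb from Il4, with Rad50 between them, a DNA repair gene whose body holds control elements of the cytokine genes. Csf2 (chr11:54247271-54249667, minus strand) and Il3 (chr11:54265303-54267277, minus strand) start 631.0 and 648.6 kb from Il4. The other members lie elsewhere. Gata3 is at chr2:9857078-9890034 on the minus strand and Il4ra at chr7:125552120-125579474 on the plus strand. Il1rl1 is at chr1:40429570-40465415 and Stat6 at chr10:127642986-127660957, both on the plus strand. Gata3, Il5, Il4ra and Csf2 each overlap an annotated antisense gene and Stat6 overlaps Nab2 on the opposite strand. Gata3 also overlaps the protein-coding genes 4930412O13Rik on the opposite strand and 9230102O04Rik on the same strand. The strand setting of the quantification is not given in the sources used here, so reads of partners on the opposite strand may not have been told apart. A strand setting would not separate reads of a partner on the same strand.

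The 250 bases before the RefSeq start of all 9 members were read from the promoter table of GRCm38.p6, and 4 are shown: those of the type 2 cytokine genes of the cluster, and that of Il1rl1, whose window held the most GATA forms. Il4 and Il1rl1 each had 2 RefSeq starts listed, and the one nearest the GENCODE start was used. Each window is written 5′ to 3′ on its gene's strand. Capitals mark the NFAT core GGAAA and the GATA forms AGATAA or TGATAA, or else AGATAG or TGATAG, each on either strand. NFAT proteins carry the signal of the T cell receptor to cytokine genes.
Il4 promoter, chr11:53618666-53618915, minus strand: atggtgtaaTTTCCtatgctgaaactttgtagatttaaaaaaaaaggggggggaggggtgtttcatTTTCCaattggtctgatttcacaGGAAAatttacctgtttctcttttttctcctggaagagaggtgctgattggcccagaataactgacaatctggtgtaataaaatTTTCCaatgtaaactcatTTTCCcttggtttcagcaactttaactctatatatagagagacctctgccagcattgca
Il13 promoter, chr11:53634703-53634952, minus strand: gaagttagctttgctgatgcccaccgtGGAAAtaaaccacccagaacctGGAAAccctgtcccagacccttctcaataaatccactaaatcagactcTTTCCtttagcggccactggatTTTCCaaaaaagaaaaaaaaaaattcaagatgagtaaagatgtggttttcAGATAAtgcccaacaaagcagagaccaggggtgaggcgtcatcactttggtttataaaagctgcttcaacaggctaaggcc
Il5 promoter, chr11:53720544-53720793, plus strand: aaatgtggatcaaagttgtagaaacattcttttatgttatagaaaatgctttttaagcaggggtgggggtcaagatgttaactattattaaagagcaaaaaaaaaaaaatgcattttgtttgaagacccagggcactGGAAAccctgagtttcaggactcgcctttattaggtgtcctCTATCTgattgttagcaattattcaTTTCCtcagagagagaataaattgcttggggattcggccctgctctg
Il1rl1 promoter, chr1:40429320-40429569, plus strand: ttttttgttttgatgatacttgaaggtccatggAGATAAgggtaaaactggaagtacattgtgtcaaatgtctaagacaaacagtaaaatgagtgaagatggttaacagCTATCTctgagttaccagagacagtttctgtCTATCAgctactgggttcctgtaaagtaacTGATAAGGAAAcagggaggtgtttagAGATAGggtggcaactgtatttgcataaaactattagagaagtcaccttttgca

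The Il4 window held 5 NFAT cores and no GATA form, and it also held 1 match to the STAT6 pattern TTCNNNNGAA. The Il13 window held 4 NFAT cores and 1 GATA form, and the Il5 window held 2 and 1. The Il1rl1 window held 5 GATA forms and 1 NFAT core, with one GATA form directly followed by the NFAT core. Among 32817 promoter windows of the same length, 55.6% held at least 1 NFAT core, 1.58% at least 4 and 0.39% at least 5. At least 1 GATA form was present in 26.5% of the windows and at least 5 in 0.043%, and the STAT6 pattern in 5.85%. These matches are descriptions of letters, not of binding.

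Before the members are compared, 2 features of the libraries bear on them. The Th1_Vitro libraries held 50.7 to 66.5% of their TPM in their 10 most abundant genes, against 14.4 to 30.7% elsewhere, and 19.5 to 41.4% of symbols were listed at 0 in them, against 8.20 to 23.9%. Their median-of-ratios size factors were 0.562 ± 0.105 (SD, n = 3), against group means of 1.17 to 1.30. Each Th1_Vitro comparison is therefore given as deposited and after dividing by these factors. That scaling moved the median log2 fold change of all genes tested by 0.63 to 0.72 in the 3 Th1_Vitro comparisons and by at most 0.10 in the others. A gene is said to have risen or fallen against Th1_Vitro only where both scales called it in the same direction. The other feature is Tfh_TILS replicate 2, in which 12 macrophage and monocyte markers summed to 1003 TPM, against 84.9 and 243 TPM in the other Tfh_TILS libraries and 12.8 to 35.0 TPM in the cultures. The 12 T cell markers summed to 595 to 1422 TPM in Th1_Vitro and 1634 to 2762 TPM in the other groups, with a mean of at least 1 TPM for 12 of 12 in each group. The same was true of 8 of 8 B cell markers, whose sums were 11.3 to 80.7 TPM over the 12 libraries. Because these are bulk samples, fewer cells of a type and less RNA per cell cannot be told apart.

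All comparisons used limma on log2(TPM + 1) over 23308 symbols whose mean reached 1 TPM in 1 group or more, a filter that all 9 members passed. Il5 passed it only through Tfh_TILS and Tfh_Vitro, and Il4, Il13 and Il1rl1 had means under 1 TPM in Th1_Vitro, so such members had to be higher elsewhere to be tested. Calls were made where the p-value, adjusted over all genes tested by the Benjamini-Hochberg method, was under 0.05. Fold changes are on that log2(TPM + 1) scale, which understates the change of genes of a few TPM. The 6 comparisons share groups, so they are not independent of one another.

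**Figure D1:**
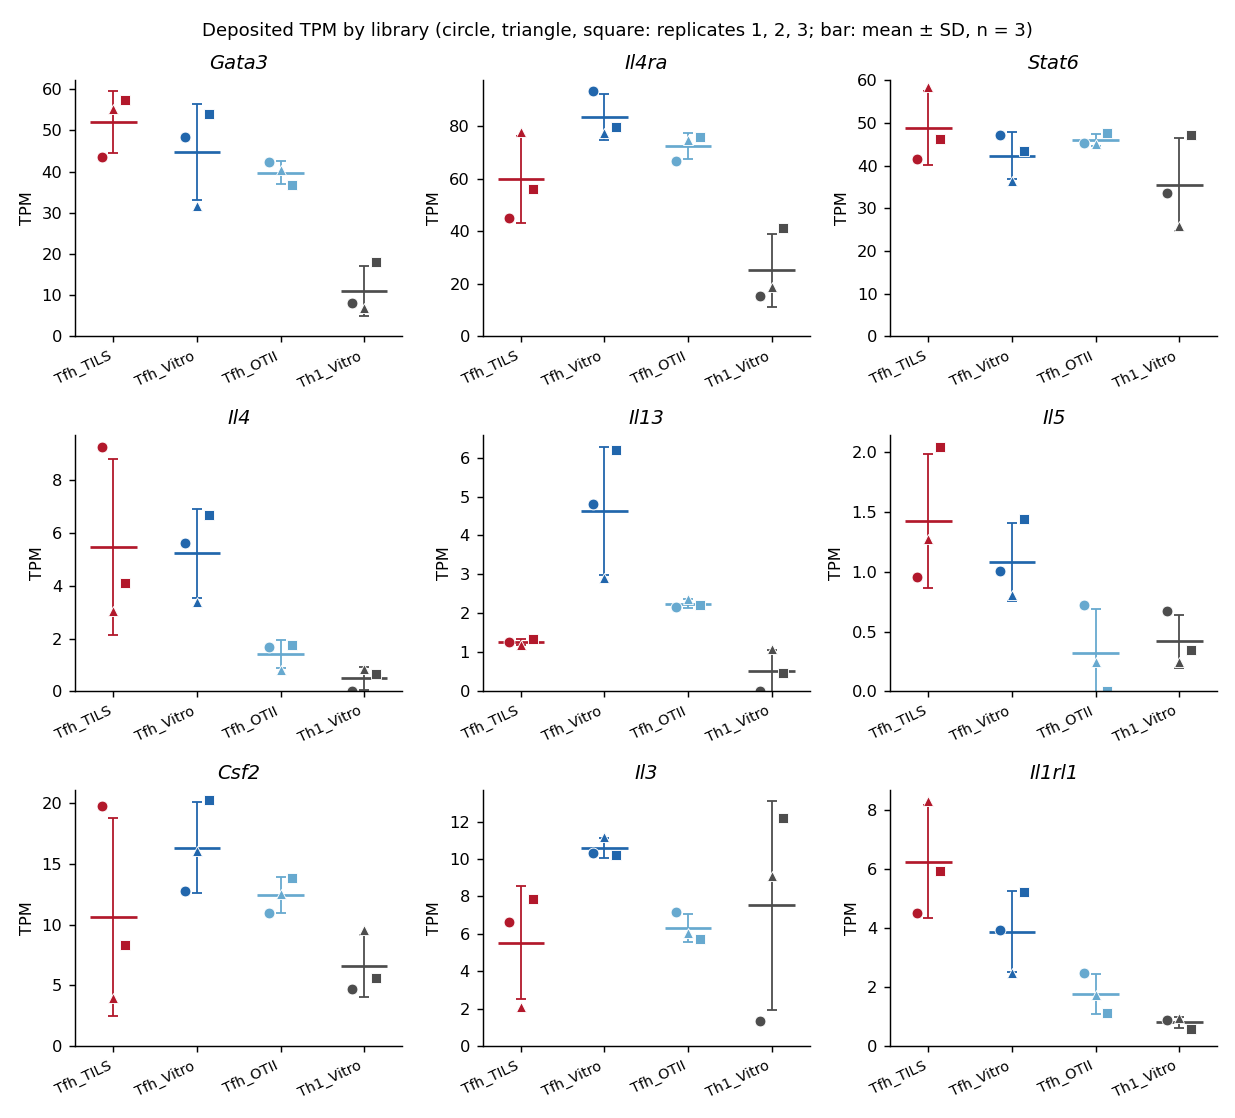
Deposited TPM (vertical axis, from 0) of the 9 members in each of 12 libraries, by group on the horizontal axis. Points are libraries and bars are means ± SD of 3 libraries. Gata3 lay between 31.6 and 57.4 TPM in the 9 Tfh_TILS, Tfh_Vitro and Tfh_OTII libraries and between 6.91 and 18.1 TPM in the Th1_Vitro libraries.

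Gata3 was lower in Th1_Vitro than in each of the 3 Tfh groups, among which no difference was called. It stood at 43.5, 55.3 and 57.4 TPM in Tfh_TILS, at 48.4, 31.6 and 54.1 TPM in Tfh_Vitro, at 42.3, 40.3 and 36.7 TPM in Tfh_OTII, and at 8.17, 6.91 and 18.1 TPM in Th1_Vitro. The order of the means was Tfh_TILS, Tfh_Vitro, Tfh_OTII and Th1_Vitro, at 52.1 ± 7.48, 44.7 ± 11.7, 39.8 ± 2.83 and 11.05 ± 6.11 TPM (SD, n = 3). The first 3 groups overlapped in part, and every library of theirs was above every Th1_Vitro library. Scaling narrowed the gap without overlap, with 27.96 to 43.9 TPM in the Tfh groups and 14.6 to 26.7 TPM in Th1_Vitro.

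Gata3 rose against Th1_Vitro in each Tfh group. As deposited, its log2 fold change in limma was 2.00 ± 0.31 (SE; adjusted p = 0.000404) in Tfh_Vitro, 2.24 ± 0.31 (adjusted p = 0.000158) in Tfh_TILS and 1.87 ± 0.31 (adjusted p = 0.000413) in Tfh_OTII. After scaling the same limma fold changes of Gata3 were 1.00 ± 0.25 (adjusted p = 0.0182), 1.10 ± 0.25 (adjusted p = 0.00984) and 0.81 ± 0.25 (adjusted p = 0.0362). The deposited calls of Gata3 held without any 1 library. The scaled calls held without any 1 library only in Tfh_TILS. That of Tfh_Vitro was lost without Tfh_Vitro replicate 1 or 3 or Th1_Vitro replicate 1 or 2 (limma adjusted p up to 0.0824), and that of Tfh_OTII without any library but Th1_Vitro replicate 3 (limma adjusted p up to 0.106). Among the Tfh groups no difference of Gata3 was called, and the 95% interval of the limma fold change between Tfh_TILS and Tfh_Vitro ran from -0.44 to 0.92.

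A ratio of genes within a library does not depend on how libraries are scaled. The ratio of Gata3 to Tbx21 was taken for that reason, after the values had been seen, and is a description with no test. Gata3 stood at 2.14 to 3.03 times the TPM of Tbx21 in Tfh_TILS, 3.91 to 4.21 times in Tfh_Vitro and 6.81 to 11.1 times in Tfh_OTII. In Th1_Vitro it stood at 0.602 to 0.830 times. Th1_Vitro was thus the group in which Tbx21 exceeded Gata3 in each library, and no group overlapped another. Tbx21 itself was at 9.85 to 25.7 TPM in Th1_Vitro, 14.6 to 25.9 TPM in Tfh_TILS, 7.50 to 12.99 TPM in Tfh_Vitro and 3.82 to 5.39 TPM in Tfh_OTII. Against Th1_Vitro, Tbx21 fell in Tfh_OTII (limma log2 fold change -1.46 ± 0.35, SE, adjusted p = 0.00448; -2.48 after scaling). The high Gata3 to Tbx21 ratio of Tfh_OTII therefore went with low Tbx21, since its Gata3 was no higher than that of the other Tfh groups. The ratio of Gata3 to Stat6 ranged from 0.772 to 1.24 in the 9 Tfh libraries and from 0.244 to 0.383 in Th1_Vitro. That ratio moves with Stat6 as well as with Gata3, and after scaling Stat6 was called higher in Th1_Vitro than in each Tfh group.

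**Figure D2:**
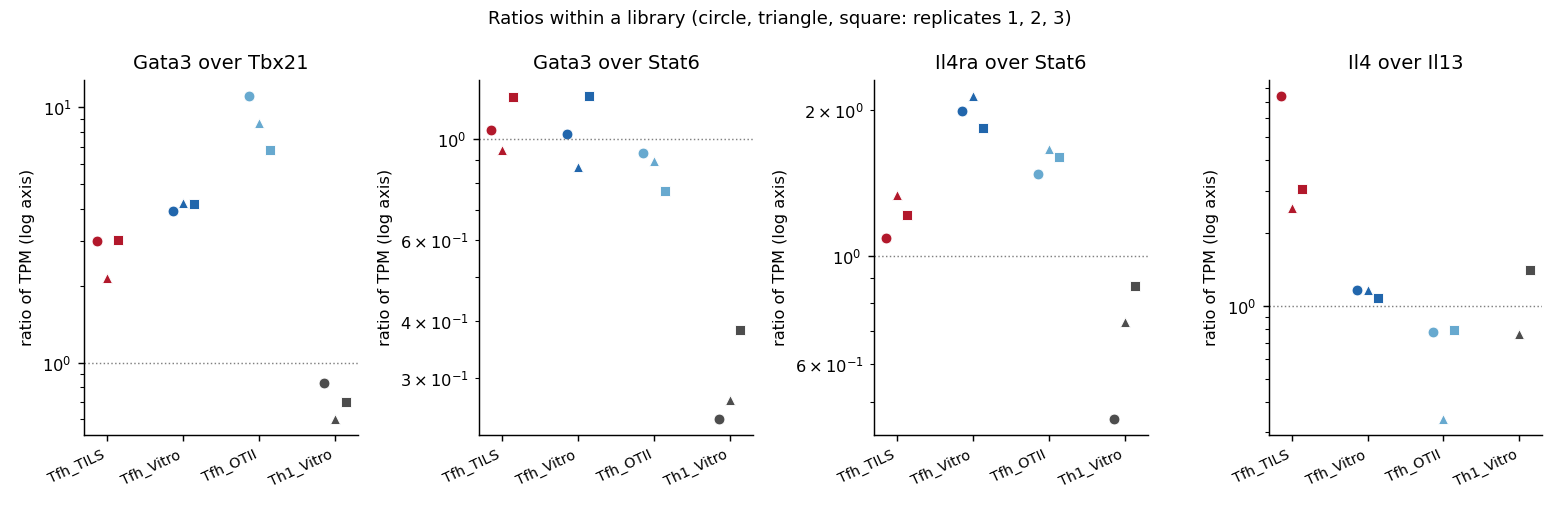
Ratios of TPM within each library (log axis) for Gata3 over Tbx21, Gata3 over Stat6, Il4ra over Stat6 and Il4 over Il13, by group. Points are libraries, and the dotted line marks equal TPM. The Gata3 to Tbx21 ratio was below 1 in the 3 Th1_Vitro libraries and at least 2.14 in the other 9. Il4 over Il13 has 2 points in Th1_Vitro because both genes were listed at 0 in its replicate 1.

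Il4, the cytokine that drives type 2 differentiation and antibody class switching, was a low transcript that was highest in Tfh_TILS and Tfh_Vitro. It stood at 9.27, 3.03 and 4.10 TPM in Tfh_TILS and at 5.61, 3.38 and 6.69 TPM in Tfh_Vitro. In Tfh_OTII it stood at 1.68, 0.810 and 1.75 TPM, and in Th1_Vitro at 0.832 and 0.643 TPM with replicate 1 listed at 0. The libraries of Tfh_TILS and Tfh_Vitro overlapped, and all 6 were above all libraries of the other groups. Against Th1_Vitro, Il4 rose in Tfh_Vitro with a limma log2 fold change of 2.07 ± 0.39 (SE; adjusted p = 0.00127), which was 1.60 ± 0.44 (adjusted p = 0.0287) after scaling. It also rose in Tfh_TILS by 2.04 ± 0.39 (limma adjusted p = 0.00109), or 1.48 ± 0.44 (adjusted p = 0.0345) after scaling. Both deposited calls of Il4 held without any 1 library. After scaling, the Tfh_Vitro call of Il4 was lost without any of the 3 Tfh_Vitro libraries or Th1_Vitro replicate 1, and the Tfh_TILS call without replicate 1 or 3 of either group (limma adjusted p up to 0.116).

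Between Tfh_TILS and Tfh_Vitro, Il4 had a limma log2 fold change of -0.02 ± 0.39, with a 95% interval from -0.86 to 0.81. Against Tfh_OTII, Il4 was called higher in Tfh_TILS, with a limma log2 fold change of 1.33 ± 0.39 (SE; adjusted p = 0.0354). That call is fragile. The only library that could be left out with the call kept was Tfh_TILS replicate 2 (limma adjusted p = 0.0260, the lowest of 6, the highest being 0.137), and each of the 5 other settings lost it (limma adjusted p from 0.05003 to 0.157). Il4 was lower in each Tfh_OTII library than in each Tfh_Vitro library, at a limma log2 fold change of -1.35 ± 0.39 that was not called (adjusted p = 0.101). A fit of these 2 groups alone did call Il4 (limma adjusted p = 0.0283), with 2857 genes called against 555 in the fit of all 12 libraries.

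Il13, which drives mucus, fibrosis and other tissue effects of type 2 responses, had a different order from its neighbour Il4. It was highest in Tfh_Vitro, at 4.80, 2.91 and 6.18 TPM. It stood at 2.15, 2.38 and 2.21 TPM in Tfh_OTII and at 1.25, 1.20 and 1.34 TPM in Tfh_TILS. In Th1_Vitro it stood at 1.08 and 0.456 TPM, and replicate 1 was listed at 0. As deposited, none of these 4 groups overlapped another, but Il13 was not called in Tfh_TILS against either Tfh culture. Against Tfh_OTII its limma log2 fold change was -0.52 ± 0.32 (adjusted p = 0.308). Il13 rose in Tfh_Vitro against Th1_Vitro, with a limma log2 fold change of 1.92 ± 0.32 (SE; adjusted p = 0.000561) and of 1.45 ± 0.38 (adjusted p = 0.0229) after scaling. The scaled call of Il13 was lost without Tfh_Vitro replicate 1 or 3 or Th1_Vitro replicate 1 (limma adjusted p up to 0.0976). In Tfh_OTII against Th1_Vitro, Il13 was called as deposited (1.16 ± 0.32; limma adjusted p = 0.00977) and not after scaling (0.69 ± 0.38; limma adjusted p = 0.223).

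Between Tfh_TILS and Tfh_Vitro, the limma log2 fold change of Il13 was -1.27 ± 0.32, with a 95% interval from -1.95 to -0.59, and it was not called after adjustment over all genes (adjusted p = 0.0586). Without Tfh_TILS replicate 2 it was -1.25. The within-library ratio of Il4 to Il13, also taken after the values had been seen, was 7.41, 2.54 and 3.06 in Tfh_TILS. It was 1.17, 1.16 and 1.08 in Tfh_Vitro and 0.781, 0.340 and 0.793 in Tfh_OTII. Il4 therefore exceeded Il13 in each library of Tfh_TILS and Tfh_Vitro and was below it in each library of Tfh_OTII. In Th1_Vitro the ratio was 0.767 and 1.41 in the libraries where both were above 0, with neither gene above 1.08 TPM there.

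Il5, the growth and survival factor of eosinophils, was close to the lower limit of what these tables hold. It was at 0.956, 1.27 and 2.04 TPM in Tfh_TILS, 1.01, 0.807 and 1.45 TPM in Tfh_Vitro, and 0.668, 0.241 and 0.346 TPM in Th1_Vitro. In Tfh_OTII it was at 0.721 and 0.243 TPM, with replicate 3 listed at 0. As deposited, each Tfh_TILS and Tfh_Vitro library was above each library of the other groups. No comparison called Il5, and the nearest was Tfh_TILS against Th1_Vitro, with a limma log2 fold change of 0.76 ± 0.30 (SE; adjusted p = 0.0528) that was 0.26 after scaling. Read depth is unknown, so differences of this size at about 1 TPM could not be set against counting error.

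Il4ra encodes the α chain shared by the receptors of IL-4 and IL-13. The order of its means differed from that of Gata3, with Tfh_Vitro and Tfh_OTII at the top. No difference of Il4ra among the Tfh groups was called (limma adjusted p from 0.548 to 0.889). It stood at 93.6, 77.6 and 79.7 TPM in Tfh_Vitro, 66.95, 74.7 and 76.0 TPM in Tfh_OTII, 45.2, 78.0 and 56.1 TPM in Tfh_TILS, and 15.5, 18.9 and 41.1 TPM in Th1_Vitro. Th1_Vitro did not overlap the other groups as deposited, while Tfh_TILS overlapped both cultures through its replicate 2. As deposited, limma called Il4ra higher than in Th1_Vitro in Tfh_Vitro (1.81 ± 0.32, SE; adjusted p = 0.000785), Tfh_OTII (1.61 ± 0.32; adjusted p = 0.00124) and Tfh_TILS (1.31 ± 0.32; adjusted p = 0.00477). None of these calls remained after scaling, where the limma log2 fold changes of Il4ra were 0.77, 0.51 and 0.13 (adjusted p = 0.0736, 0.201 and 0.782). On the scaled values Th1_Vitro lay at 28.9 to 60.6 TPM and overlapped Tfh_TILS (39.3 to 54.6 TPM) and Tfh_OTII (47.3 to 69.9 TPM).

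Stat6, which carries the IL-4 signal to the nucleus, was the most even member across the deposited values. It lay between 41.6 and 58.4 TPM in Tfh_TILS, 36.4 and 47.2 TPM in Tfh_Vitro, 45.0 and 47.5 TPM in Tfh_OTII, and 25.8 and 47.2 TPM in Th1_Vitro. No deposited comparison called it. After scaling it was at 54.6 to 69.7 TPM in Th1_Vitro and 32.0 to 43.7 TPM in the Tfh groups, and limma called it lower in each Tfh group, at -0.77 ± 0.20 (SE; adjusted p = 0.0206) in Tfh_Vitro, -0.71 ± 0.20 (adjusted p = 0.0247) in Tfh_TILS and -0.70 ± 0.20 (adjusted p = 0.0229) in Tfh_OTII. The direction of Stat6 against Th1_Vitro thus turned with the scaling, and neither direction is counted. Within a library Il4ra stood at 1.83 to 2.13 times Stat6 in Tfh_Vitro, 1.48 to 1.66 times in Tfh_OTII, 1.09 to 1.34 times in Tfh_TILS and 0.462 to 0.869 times in Th1_Vitro. No group overlapped another in this ratio, which was a description chosen after its values were seen and which moves with Stat6 as well as with Il4ra. Other ratios that were taken did overlap. Il4ra over Gata3 was 1.90 to 2.73 in Th1_Vitro and 1.47 to 2.46 in Tfh_Vitro. Csf2 over Il3 was 0.458 to 3.55 in Th1_Vitro, a range that held every other library.

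Il1rl1 encodes ST2, the receptor of the alarmin IL-33, which marks type 2 helper cells, tissue regulatory T cells, mast cells and type 2 innate lymphoid cells. Its order was Tfh_TILS, Tfh_Vitro, Tfh_OTII and Th1_Vitro. It stood at 4.53, 8.31 and 5.92 TPM in Tfh_TILS, 3.93, 2.47 and 5.22 TPM in Tfh_Vitro, 2.48, 1.73 and 1.11 TPM in Tfh_OTII and 0.873, 0.941 and 0.593 TPM in Th1_Vitro. As deposited, each group overlapped the next in this order, except that every Th1_Vitro library was below every other. Il1rl1 rose in Tfh_TILS against Th1_Vitro, with a limma log2 fold change of 1.98 ± 0.31 (SE; adjusted p = 0.000309), or 1.22 ± 0.28 (adjusted p = 0.0113) after scaling. It also rose in Tfh_TILS against Tfh_OTII, by 1.38 ± 0.31 (limma adjusted p = 0.00945). Both calls held without any 1 library, and without Tfh_TILS replicate 2 they were 1.78 and 1.19. In Tfh_Vitro against Th1_Vitro, Il1rl1 was called as deposited (1.40 ± 0.31; limma adjusted p = 0.00346) and not after scaling (0.77 ± 0.28; limma adjusted p = 0.0867).

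By group mean, the summed markers of other cells that carry ST2 had the same order as Il1rl1, but within groups this did not always hold. In Tfh_OTII, Il1rl1 was at 2.48, 1.73 and 1.11 TPM, where regulatory T cell markers summed to 1022, 1048 and 1041 TPM. In Tfh_TILS replicate 2, the library with the highest Il1rl1, 8 markers of type 2 innate lymphoid cells summed to 575 TPM, against 75.4 and 161 TPM in the other Tfh_TILS libraries, 48.7 to 68.0 TPM in Tfh_Vitro, 26.1 to 46.2 TPM in Tfh_OTII and 13.9 to 15.3 TPM in Th1_Vitro. Of that sum Areg gave 226 TPM, Il7r 177 TPM and Klrg1 89.7 TPM, and of these Areg and Klrg1 are also in the list of regulatory T cell markers. The 10 regulatory T cell markers summed to 2876 TPM in that library, 1288 and 1518 TPM in the other Tfh_TILS libraries, 1059 to 1388 TPM in Tfh_Vitro, 1022 to 1048 TPM in Tfh_OTII and 274 to 452 TPM in Th1_Vitro. Foxp3, the defining factor of regulatory T cells, had the same order of groups as Il1rl1, as did the means of Gata3. Foxp3 stood at 54.1 to 147 TPM, 12.9 to 31.7 TPM, 1.66 to 2.19 TPM and 0.547 to 1.53 TPM. The part of these cells in the Il1rl1 result was not tested. The 12 mast cell and basophil markers summed to 25.2 to 80.1 TPM in Tfh_TILS, 15.4 to 28.03 TPM in Tfh_Vitro, 14.9 to 34.2 TPM in Tfh_OTII and 9.17 to 10.8 TPM in Th1_Vitro. Of these markers Mcpt8, Cpa3 and Fcer1a were at most at 1.93, 1.44 and 1.16 TPM in any library. Others were higher, with Kit at 6.15 to 7.28 TPM in Tfh_TILS and 0.660 to 1.595 TPM in Th1_Vitro, Ms4a2 at up to 6.02 TPM in Tfh_TILS and 7.13 TPM in Tfh_OTII, and Cd200r3 at up to 8.32 TPM in Tfh_TILS. Hdc stood at 2.15, 57.4 and 12.7 TPM in Tfh_TILS. The 6 eosinophil markers summed to 16.5 TPM in that library and 1.34 to 10.3 TPM in the others, and Ear1 was listed at 0 in all 3 Th1_Vitro libraries.

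**Figure D3:**
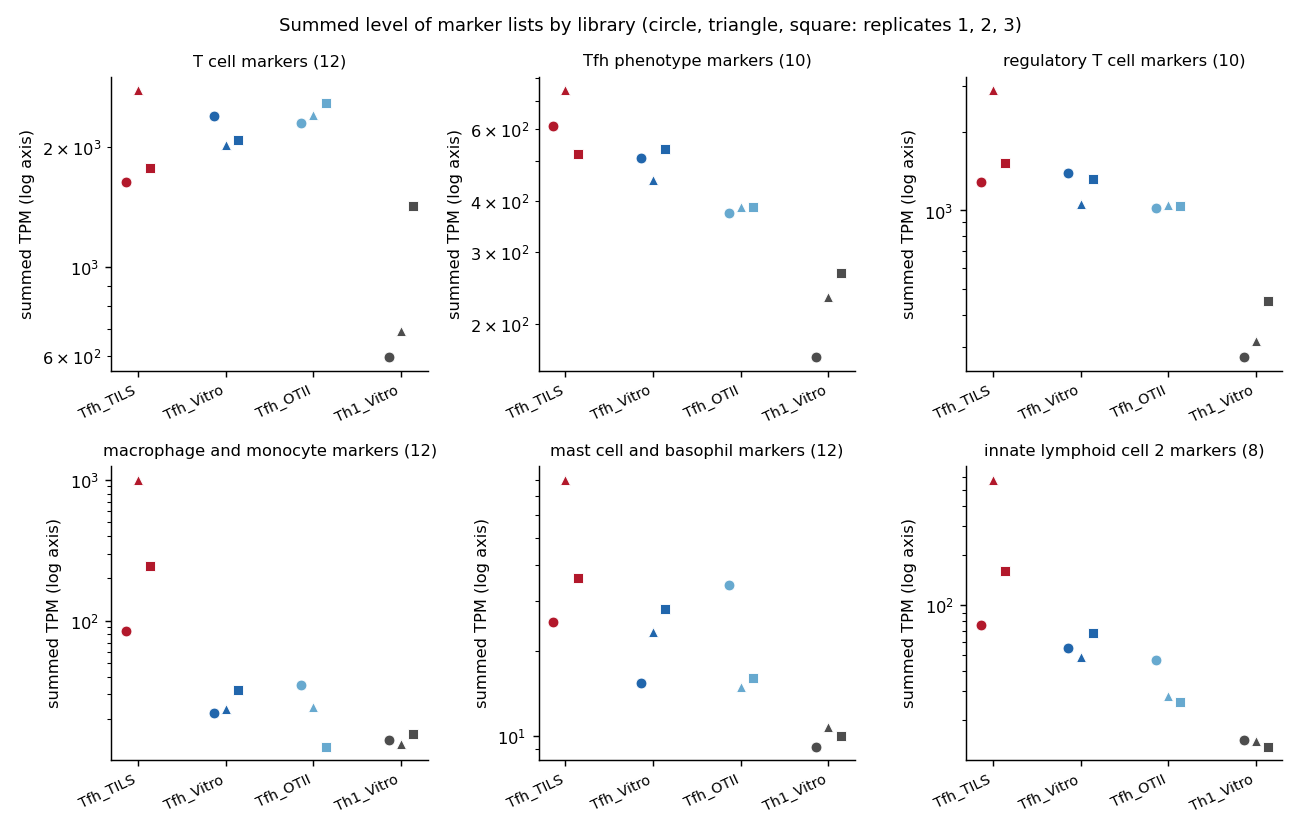
Summed TPM (log axis) of 6 marker lists in each library, by group. Points are libraries. Tfh_TILS replicate 2 (triangle) was the highest library for the regulatory T cell (2876 TPM), macrophage and monocyte (1003 TPM), mast cell and basophil (80.1 TPM) and innate lymphoid (575 TPM) lists.

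Csf2 and Il3 encode GM-CSF and interleukin 3, growth factors of myeloid cells that many activated T cells make. Csf2 stood at 12.7, 16.1 and 20.3 TPM in Tfh_Vitro, 10.97, 12.5 and 13.9 TPM in Tfh_OTII, 4.70, 9.54 and 5.58 TPM in Th1_Vitro, and 19.8, 3.95 and 8.30 TPM in Tfh_TILS. Tfh_TILS spread the widest, and both cultures under Tfh conditions were above every Th1_Vitro library. Limma called Csf2 higher in Tfh_Vitro than in Th1_Vitro as deposited (1.22 ± 0.42, SE; adjusted p = 0.0351). That call of Csf2 was lost after scaling (0.25 ± 0.48; limma adjusted p = 0.768), with no filter on low values (limma adjusted p = 0.0565) and without Tfh_Vitro replicate 2 or 3 or Th1_Vitro replicate 1 or 3 (limma adjusted p up to 0.125).

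Il3 was at 10.3, 11.2 and 10.2 TPM in Tfh_Vitro, 7.15, 6.04 and 5.73 TPM in Tfh_OTII, 6.63, 2.11 and 7.84 TPM in Tfh_TILS, and 1.32, 9.10 and 12.2 TPM in Th1_Vitro. Tfh_Vitro and Tfh_OTII were each narrow and did not overlap, while Th1_Vitro spanned all other groups. No comparison called Il3 in the fit of all 12 libraries. Its limma log2 fold change between Tfh_OTII and Tfh_Vitro was -0.67 ± 0.54 (adjusted p = 0.707), and a fit of these 2 groups alone, which leaves out the spread of Th1_Vitro, called it (adjusted p = 0.0291). Tfh_TILS replicate 2 had the lowest Csf2, Il3 and Il4 of its group and the highest Il4ra and Il1rl1.

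**Figure D4:**
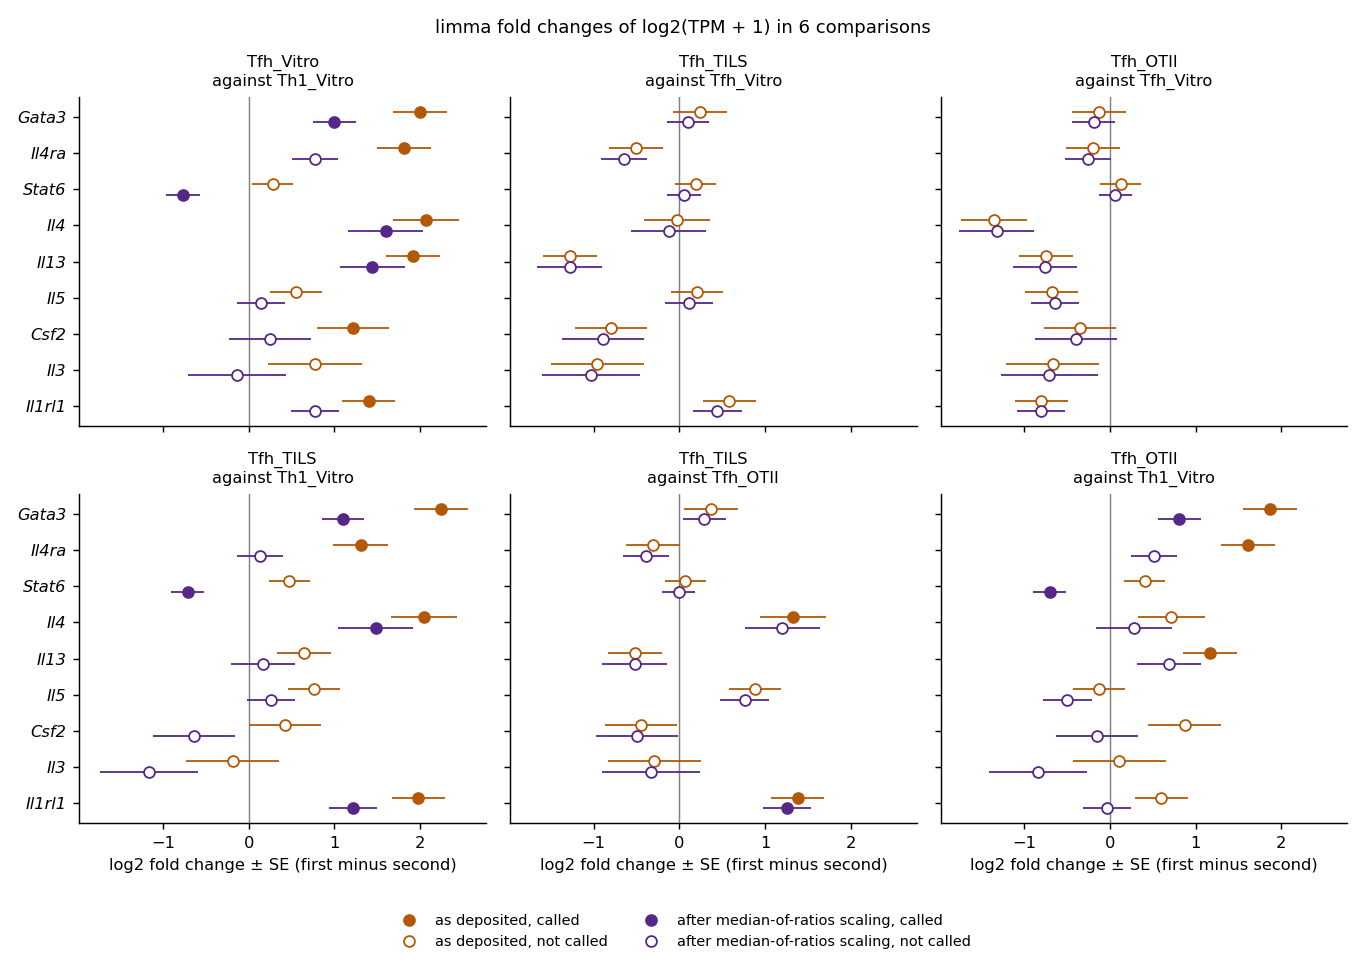
Limma log2 fold changes ± SE (horizontal axis, first group minus second, on log2(TPM + 1)) of the 9 members in 6 comparisons, as deposited and after median-of-ratios scaling. Filled points were called at an adjusted p under 0.05. Gata3 was called on both scales in the 3 comparisons with Th1_Vitro, while Stat6 changed side, from 0.28 to -0.77 in Tfh_Vitro.

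The members' calls were counted beside those of all genes tested. In Tfh_Vitro against Th1_Vitro, 6 of 9 members were called as deposited, all higher, where 41.6% of all genes tested were called. After scaling 4 of 9 were called (14.4% of all genes), and 3 of 9 were called in the same direction on both scales (9.52%), namely Gata3, Il4 and Il13. The members' median log2 fold change was 1.40 as deposited and 0.77 after scaling, beside 0.78 and 0.14 over all genes. In Tfh_TILS against Th1_Vitro, 4 of 9 were called as deposited (49.9%), 4 after scaling (18%) and 3 on both (11%), namely Gata3, Il4 and Il1rl1. Here the medians of 0.76 and 0.17 lay beside 0.87 and 0.16 over all genes. In Tfh_OTII against Th1_Vitro, 3 of 9 were called as deposited (43.9%), 2 after scaling (20.5%) and 1 on both (13.6%), which was Gata3.

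Calls of members among the 3 Tfh groups were counted in the same way. With 9 members, counts this near the share of all genes are not a result about the members. In Tfh_TILS against Tfh_OTII, 2 of 9 members were called as deposited (15.3% of all genes), 1 after scaling (15.3%) and 1 on both scales (13.6%). In Tfh_TILS against Tfh_Vitro, limma called 0 of 9 members on the deposited values (2.1% of all genes), the scaled values (2.33%) or both (1.86%), and 1 of 9 (Il13) had an unadjusted p under 0.05. In Tfh_OTII against Tfh_Vitro it also called 0 of 9 as deposited (2.38%), after scaling (1.89%) or on both (1.79%), where 4 of 9 (Il4, Il5, Il13 and Il1rl1, each lower in Tfh_OTII) had an unadjusted p under 0.05. A fit of Tfh_OTII and Tfh_Vitro alone called 2 of 9 members (Il4 and Il3) and 2857 genes, against 555 genes in the fit of all 12 libraries. The share of all genes with an unadjusted p under 0.05 was not taken, so the percentages here are no background for the unadjusted counts. In these 3 comparisons the members' median log2 fold changes were 0.07, -0.02 and -0.67, beside 0.06, 0.10 and 0.05 over all genes.

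Other genes related to the type 2 programme, some of which oppose it (such as Tbx21 and Bcl6), were followed as lists. Their counts against Th1_Vitro stand beside the share of all genes called higher, which was 41.1% in Tfh_Vitro, 49.3% in Tfh_TILS and 42.7% in Tfh_OTII as deposited, and 9.02, 10.4 and 12.4% on both scales. In Tfh_TILS against Tfh_OTII, 7.97% of all genes were called higher and 7.29% lower. Of 23 regulators of Gata3 and type 2 differentiation, 19 were called higher in Tfh_Vitro than in Th1_Vitro as deposited, and 6 rose on both scales (Ecm1, Ets1, Maf, Nfil3, Rbpj and Tcf7). The median log2 fold change of the list was 1.39 as deposited and 0.43 after scaling, beside 0.78 and 0.14 over all genes tested. Maf, which drives Il4 in helper cells, rose from 1.48 to 19.4 TPM (log2 fold change 2.99 ± 0.43, SE; limma adjusted p = 0.000237). Rbpj, the nuclear partner of Notch, rose from 40.2 to 182 TPM (2.18 ± 0.25; limma adjusted p = 4.82e-05). In Tfh_TILS against Th1_Vitro 16 of 23 were called higher as deposited and 6 on both scales (Bcl6, Ets1, Maf, Nfil3, Rbpj and Runx1). Without Tfh_TILS replicate 2 the deposited calls of Bhlhe41, Zfpm1 and Runx3 were lost (limma adjusted p up to 0.163). In Tfh_OTII against Th1_Vitro 17 were called higher and 1 lower, with Ets1, Rbpj and Tcf7 higher and Tbx21 lower on both.

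Maf was called in each comparison between Tfh groups, where Gata3 was not called. Maf stood at 43.4, 189 and 65.3 TPM in Tfh_TILS, 18.3, 13.2 and 26.8 TPM in Tfh_Vitro, 3.73, 3.34 and 2.22 TPM in Tfh_OTII and 1.46, 1.42 and 1.54 TPM in Th1_Vitro, with no overlap between groups. It rose in Tfh_TILS against Tfh_OTII by 4.35 ± 0.43 (SE; limma adjusted p = 7.15e-05), and it fell in Tfh_OTII against Tfh_Vitro (-2.28 ± 0.43; limma adjusted p = 0.0156). Its rise against Tfh_Vitro (2.07 ± 0.43; limma adjusted p = 0.0283) was kept without Tfh_TILS replicate 1 or 2 and lost without any other of the 6 libraries (limma adjusted p up to 0.167). The Tfh_TILS libraries had the same order for Maf as for the macrophage and the regulatory T cell markers, whose part was not tested. Satb1, an organiser of chromatin at the cytokine cluster, fell in Tfh_TILS against Tfh_OTII (119.6 against 630.1 TPM, -2.41 ± 0.31; limma adjusted p = 0.000333). Bcl6, the Tfh master regulator that opposes GATA3, rose in the same comparison from 4.40 to 14.5 TPM (1.496 ± 0.23; limma adjusted p = 0.00117).

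Of 16 genes of IL-4 and IL-13 signalling other than Il4ra and Stat6, 13 were called higher in Tfh_Vitro than in Th1_Vitro as deposited and 6 on both scales (Cish, Il13ra2, Jak2, Ptpn6, Socs3 and Stat5b), beside 41.1 and 9.02% of all genes. Their median was 1.36 as deposited and 0.39 after scaling. Socs3, a feedback inhibitor of IL-6 signalling, rose from 6.16 to 34.2 TPM (2.51 ± 0.53, SE; limma adjusted p = 0.00283). Il13ra2, a decoy receptor for IL-13, rose from 0.339 to 4.87 TPM (2.13 ± 0.31; limma adjusted p = 0.000240). In Tfh_TILS against Th1_Vitro 14 of 16 were called higher as deposited and 3 on both scales (Il13ra1, Il13ra2 and Irs2). Without Tfh_TILS replicate 2 the deposited calls of Tyk2, Socs1, Socs3 and Ptpn6 were lost (limma adjusted p up to 0.0911). In Tfh_OTII against Th1_Vitro 11 were called higher and 5 on both (Jak1, Jak2, Ptpn6, Socs3 and Stat5b). Among the Tfh groups, Il13ra1, the chain that pairs with IL-4Rα mostly on cells other than lymphocytes, was higher in Tfh_TILS, at 1.66, 13.7 and 3.8997 TPM, than in Tfh_OTII, at 0.145 to 0.309 TPM (2.21 ± 0.47; limma adjusted p = 0.00727). Il13ra1 reached a mean of 1 TPM only in Tfh_TILS, so it had to be higher there to be tested. Its highest library was replicate 2, the one with the most macrophage transcripts, and the part of macrophages in this result was not tested. Ptpn6, a phosphatase that dampens cytokine signals, fell in Tfh_TILS against Tfh_OTII (154.3 against 614.5 TPM, -2.11 ± 0.34; limma adjusted p = 0.00139).

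Of 15 tested receptors of type 2 helper cells and of alarmins, 9 were called higher in Tfh_Vitro than in Th1_Vitro as deposited and 3 on both scales (Ccr4, Cysltr1 and Il2ra), beside 41.1 and 9.02% of all genes. Their median was 1.05 as deposited and 0.38 after scaling. Against Th1_Vitro the 15 tested were called higher in Tfh_TILS as deposited, beside 49.3% of all genes, and 5 on both scales (Ccr4, Cysltr1, Icos, Il2ra and Il7r), beside 10.4%. Ccr3 was tested only through Tfh_TILS, where it stood at 0.475, 6.16 and 1.06 TPM. Without Tfh_TILS replicate 2 the deposited count was 10. In Tfh_OTII 6 were called by limma as deposited and 0 on both scales. Ccr4, the chemokine receptor of type 2 and regulatory cells, stood at 41.2, 21.9 and 33.8 TPM in Tfh_TILS, 29.8, 21.8 and 31.1 TPM in Tfh_Vitro, 14.2, 13.96 and 13.02 TPM in Tfh_OTII and 3.01, 4.68 and 5.98 TPM in Th1_Vitro. Tfh_TILS and Tfh_Vitro overlapped at the top, as they did for Il4. In Tfh_TILS against Tfh_OTII 6 of 15 were called higher (Ccr4, Ccr8, Cysltr1, Icos, Il7r and Traf6), beside 7.97% of all genes, and without replicate 2 the count was also 6. Ccr8 rose there from 6.64 to 42.9 TPM (2.41 ± 0.37; limma adjusted p = 0.00111) and Icos from 24.0 to 224.7 TPM (3.02 ± 0.35; limma adjusted p = 0.000175). Icos stood at 135.8, 382.2 and 155.96 TPM in Tfh_TILS. Without replicate 2 the Tfh_TILS means were 28.8 TPM for Ccr8 and 145.9 TPM for Icos, and both calls were kept (limma adjusted p = 0.00299 and 0.000197). Il1rap, the partner chain of ST2, stood at 4.32, 15.5 and 6.68 TPM in Tfh_TILS and 1.80 to 4.78 TPM in the 9 cultures. In Tfh_TILS against Tfh_Vitro only Icos of this list was called, and that call was kept without Tfh_TILS replicate 1 and lost without any other of the 6 libraries.

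Of the 5 chains of the receptors of IL-3, IL-5 and GM-CSF, 3 rose in Tfh_TILS against Tfh_OTII (Csf2ra, Csf2rb and Csf2rb2), beside 7.97% of all genes, and 3 were called without Tfh_TILS replicate 2. The call of Csf2ra was lost without Tfh_OTII replicate 2 and that of Csf2rb without Tfh_OTII replicate 3 (limma adjusted p = 0.0501 and 0.0512). The median log2 fold change of the 5 was 1.93, beside 0.06 over all genes tested. Csf2rb, the shared β chain, was at 8.92, 86.8 and 29.6 TPM in Tfh_TILS and at 1.80 to 6.02 TPM in Tfh_OTII (2.73 ± 0.61, SE; limma adjusted p = 0.00961). Csf2rb2, the β chain specific to mouse IL-3, rose from 10.6 to 57.5 TPM (2.38 ± 0.33; limma adjusted p = 0.000581). Macrophage markers, whose cells carry these chains, summed to 84.9, 1003 and 243 TPM in the Tfh_TILS libraries, the order of Csf2rb. Csf2rb2, at 53.02, 73.8 and 45.7 TPM there, did not keep that order. The part of macrophages in these results was not tested. Csf2rb2 also rose in Tfh_Vitro against Th1_Vitro, from 4.80 to 35.8 TPM (2.61 ± 0.33; limma adjusted p = 0.000111).

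Along the cytokine cluster, 12 of 14 listed neighbours were in the tables and 11 were tested. In Tfh_Vitro against Th1_Vitro 7 were called higher as deposited, beside 41.1% of all genes, and Kif3a and P4ha2 rose on both scales, with a list median of 1.45 as deposited and 0.39 after scaling. Kif3a, a kinesin motor gene next to Il4 on the side away from Il13, rose from 1.64 to 7.82 TPM (1.75 ± 0.27, SE; limma adjusted p = 0.000354). Rad50 stood at 28.6 to 35.6 TPM in Tfh_TILS, 32.7 to 36.1 TPM in Tfh_Vitro, 70.5 to 75.6 TPM in Tfh_OTII and 8.30 to 20.6 TPM in Th1_Vitro. Its level was thus highest in Tfh_OTII, where each library held less Il4 and Il5 than each library of the other Tfh groups. Il13, the nearer neighbour on the Il4 side, was higher in each Tfh_OTII library than in each Tfh_TILS library. Rad50 fell in Tfh_TILS against Tfh_OTII (-1.12 ± 0.28; limma adjusted p = 0.0154), a call lost without Tfh_TILS replicate 2 or Tfh_OTII replicate 3 (limma adjusted p up to 0.0548). In limma 0 of 11 neighbours were called in Tfh_TILS or Tfh_OTII against Tfh_Vitro, beside 2.1 and 2.38% of all genes. Of the 11, 3 and 1 had an unadjusted p under 0.05, a share that was not taken over all genes.

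**Figure D5:**
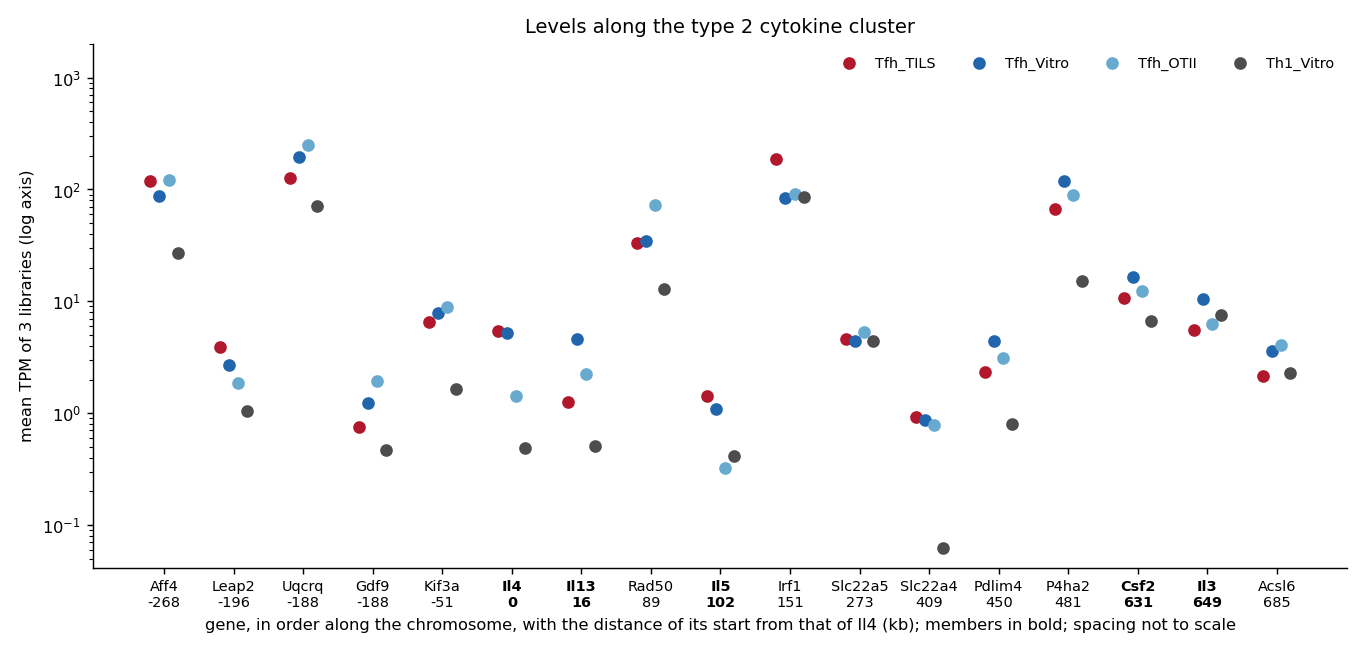
Mean TPM of 3 libraries (log axis) for the 5 cytokine genes of the cluster (bold) and the neighbours in the tables, in order along the chromosome, with the distance of each start from that of Il4 in kb under its name. Colours are groups and the horizontal spacing is not to scale. Il4 and Il13 lay below 5.5 TPM in each group mean, while Rad50 between Il13 and Il5 lay between 12.9 and 73.0 TPM.

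Other cytokines gave the setting of the type 2 genes. Of 18 further T helper cytokines, 9 were called higher in Tfh_Vitro than in Th1_Vitro as deposited, beside 41.1% of all genes, and Il10, Il17a and Il21 rose on both scales, with a list median of 1.09 as deposited and 0.42 after scaling. Ifng, the Th1 cytokine, stood at 76.7 to 127 TPM in Tfh_Vitro, 56.7 to 198 TPM in Th1_Vitro, 35.8 to 56.1 TPM in Tfh_OTII and 17.6 to 68.1 TPM in Tfh_TILS, so that it exceeded Il4, Il5 and Il13 in each of the 12 libraries. Il21, which Tfh cells make, was at 75.1 to 97.8 TPM in Tfh_Vitro and 5.28 to 9.25 TPM in Tfh_TILS, within the range of Il4. It fell in Tfh_TILS against Tfh_Vitro by 3.53 on the log2 scale (SE 0.38; limma adjusted p = 0.000938). Il10 stood at 22.6, 148.9 and 40.7 TPM in Tfh_TILS and had a mean of 0.965 TPM in Tfh_OTII, against which it rose (4.78 ± 0.54; limma adjusted p = 0.000147). Without replicate 2 the mean of Il10 in Tfh_TILS was 31.6 TPM and the call was kept (4.03; limma adjusted p = 0.000156). Its order of Tfh_TILS libraries was that of the macrophage markers (84.9, 1003 and 243 TPM) and that of the regulatory T cell markers (1288, 2876 and 1518 TPM). The part of either cell type in this result was not tested. In Tfh_OTII against Tfh_Vitro, Il10 was the only one of the 18 that was called (-3.00 ± 0.54; limma adjusted p = 0.0122), and that call was lost without Tfh_Vitro replicate 3 or Tfh_OTII replicate 3 (limma adjusted p up to 0.0840).

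Of 21 NFAT, AP-1 and receptor-induced factors, a list that includes the NFAT proteins themselves, 15 were called higher in Tfh_Vitro than in Th1_Vitro as deposited and 6 on both scales (Egr1, Egr2, Egr3, Fosl2, Nfatc2 and Nr4a2), beside 41.1 and 9.02% of all genes. Nfatc2, the NFAT protein of resting T cells, rose from 4.998 to 26.9 TPM and Egr3 from 4.37 to 27.9 TPM (2.50 ± 0.27, SE; limma adjusted p = 3.54e-05). In Tfh_TILS against Th1_Vitro 18 of 21 were called higher as deposited and 3 on both (Egr1, Nfatc2 and Nr4a2), and in Tfh_OTII 15 and 2 (Egr3 and Nr4a2). Without Tfh_TILS replicate 2 the deposited Tfh_TILS calls of Fosb and Jund were lost (limma adjusted p up to 0.0848). In limma 0 of 21 were called in Tfh_TILS or Tfh_OTII against Tfh_Vitro, beside 2.1 and 2.38% of all genes. Of the 21, 4 and 1 had an unadjusted p under 0.05, a share that was not taken over all genes. The median log2 fold change of this list in Tfh_Vitro against Th1_Vitro was 1.47 as deposited and 0.62 after scaling, beside 0.78 and 0.14 over all genes tested.

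The genes whose pattern was most like each member were taken by Pearson correlation of scaled log2 values over the 12 libraries, among 10696 genes. These values are descriptions and rest on the same 4 groups and libraries. Gata3 was most like Rab11fip4 and Akap13 (r = 0.92 for both) and Crebbp (0.91). Il4 was most like Ccr4 (0.95), Izumo1r (0.92) and Stc2 (0.91), of which Izumo1r encodes a folate receptor of regulatory T cells. Il1rl1 was most like Runx2 (0.96), Gadd45a and Maf (0.95 for both). The genes nearest Il13 were Rnf113a1 (0.92), Nrn1 (0.89) and Slamf1 (0.88), and those nearest Il4ra were Ubtd1 (0.99), Tshz1 and Galnt6 (0.95 for both). Il5 was nearest Pou6f1 (0.94), Stat6 Gpaa1 (0.97), Csf2 Zkscan1 (0.86) and Il3 Chst2 (0.89). No member was among the 3 genes most like any other member, but Il5 and Il13 had means under 5 TPM in every group and so could not be.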

How the data were processed

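Tables of TPM, 1 per library, were deposited by the authors and, per the submitters' processing notes, came from kallisto with mm10. The kallisto version, the transcript annotation and the read depth are not given in the sources used here. TPM were compared with limma 3.58.1 (R 4.3.3, intensity trend) on log2(TPM + 1), with 1 mean per group and all 12 libraries in each fit, for symbols whose mean reached 1 TPM in a group. The fit was tested on simulated data. Alternatives were median-of-ratios scaling over 16404 genes, a pseudocount of 0.1, no filter, a fit of the 2 groups alone, replicate numbers as a block, and each library left out. Leaving out libraries was extended to the listed genes after the data were seen. Symbols of 34699 of 35492 rows matched GENCODE release 21. Promoter windows came from RefSeq (GRCm38.p6), where all 9 members matched. The members and gene lists were chosen with earlier results of these data known. Named beside the members are, from each list, up to 3 genes called higher and 3 called lower per comparison whose mean reached 5 TPM. Others were named after their values were seen. Proteins were not used here.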

Additional observations from a re-analysis of the deposited data

How the results depend on the processing

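Of 755 values of single genes under another setting, 659 kept direction and side of the threshold, 50 lost and 12 gained a call and 34 turned direction. Scaling turned Stat6 against Th1_Vitro (-0.77 in Tfh_Vitro, -0.71 in Tfh_TILS, -0.70 in Tfh_OTII), Il3 (-0.13 in Tfh_Vitro, -0.84 in Tfh_OTII), Csf2 (-0.64 in Tfh_TILS, -0.15 in Tfh_OTII) and Il1rl1 (-0.034 in Tfh_OTII), and Stat6 in Tfh_TILS against Tfh_OTII (-0.0087). It also moved the genes called against Th1_Vitro to 3349 (Tfh_Vitro, from 9688), 4198 (Tfh_TILS, from 11641) and 4787 (Tfh_OTII, from 10226). These are limma log2 fold changes and counts, and the cause was not tested beyond the change of scale.

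A pseudocount of 0.1 gave 262 genes in Tfh_TILS and 359 in Tfh_OTII against Tfh_Vitro (from 489 and 555). The fit of Tfh_OTII and Tfh_Vitro alone gave 2857 genes and 2 members (Il4 and Il3). In Tfh_TILS against Tfh_OTII 1 member was called under scaling, a pseudocount of 0.1, no filter, or the 2 groups alone. Correlations of deviations between libraries of the same replicate number ran from -0.386 to 0.303 over 18 pairs, 3 of them over 0.1. Those at different numbers ran from -0.277 to 0.358 over 36 pairs, 11 of them over 0.1. Deviations from a mean of 3 libraries are tied to one another, so these correlations cannot show whether libraries of the same number were paired. The replicate block called 8628, 279, 385, 10623, 2898 and 9352 genes and 5, 0, 0, 4, 1 and 3 members (without Csf2 in the first, limma adjusted p = 0.0538, and without Il4 in the fifth), in the order Tfh_Vitro against Th1_Vitro, Tfh_TILS and Tfh_OTII against Tfh_Vitro, Tfh_TILS against Th1_Vitro and Tfh_OTII, and Tfh_OTII against Th1_Vitro.

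In the same order, leaving out 1 library gave 6336 to 10380, 94 to 882, 144 to 457, 9282 to 12227, 2011 to 3411 and 7730 to 11166 genes, and 5 to 6, 0 to 0, 0 to 0, 4 to 5, 1 to 2 and 3 to 4 members. After scaling the members called against Th1_Vitro ranged from 0 to 5 (Tfh_Vitro), 2 to 4 (Tfh_TILS) and 0 to 2 (Tfh_OTII).

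Leaving out 1 library also turned the direction of small, uncalled limma fold changes. As deposited these ran from -0.42 to 0.26 (Il4, Tfh_TILS against Tfh_Vitro), from -0.36 to 0.020 (Gata3, Tfh_OTII against Tfh_Vitro), from -0.11 to 0.92 and from -0.96 to 0.29 (Csf2 and Il3, Tfh_TILS against Th1_Vitro), from -0.34 to 0.056 and from -0.66 to 0.59 (Il5 and Il3, Tfh_OTII against Th1_Vitro), and from -0.065 to 0.18, from -0.98 to 0.051 and from -0.58 to 0.17 (Stat6, Csf2 and Il3, Tfh_TILS against Tfh_OTII). After scaling they ran, against Th1_Vitro, from -0.97 to 0.31 (Il3, Tfh_Vitro), from -0.12 to 0.40 and from -0.24 to 0.62 (Il4ra and Il13, Tfh_TILS), and from -0.36 to 0.24, from -0.23 to 0.11 and from -0.13 to 0.61 (Csf2, Il1rl1 and Il4, Tfh_OTII). Depth is unknown, so counting error at about 1 TPM, where Il5 lies, could not be given.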
